A study of Mus musculus with 8 samples.

Results

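Havcr1 and Timd2 are neighbouring mouse genes of the T cell immunoglobulin and mucin (TIM) family. They are 2 of 21874 gene rows measured in renal proximal tubules after cisplatin. Both were chosen by their rows' expression values over the 4 times, so those values are described below without a test. Proximal tubular cells from the renal cortex of male C57BL/6 mice were sequenced at 0, 24, 48 and 72 h, with 2 libraries at each time and 8 in all. Mice at 24, 48 and 72 h had received an intraperitoneal injection of 30 mg/kg cisplatin, a platinum drug toxic to this part of the nephron. The 0 h group serves as the reference; the labels list the same protocol for it and do not say whether it received a vehicle. The labels give no age and do not say whether the duplicates are separate animals, so every p-value measures the spread between these libraries only. Libraries of a time are called a and b after their columns.

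TIM proteins are membrane receptors with an immunoglobulin-like domain on a mucin stalk. Havcr1 encodes TIM-1, also called KIM-1 (kidney injury molecule 1). In injured proximal tubule cells KIM-1 binds phosphatidylserine on dying cells and lets the epithelium engulf them, and its shed ectodomain is used as a urinary marker of tubular injury. Timd2 encodes TIM-2, a rodent receptor known for binding H-ferritin and semaphorin 4A, and described on B cells and on liver and kidney epithelium.

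The genes lie head to head on chromosome 11 (GRCm38, the assembly of mm10). RefSeq places Havcr1 on the plus strand at chr11:46739822-46779578 and Timd2 on the minus strand at chr11:46668960-46707107, with 32714 bases between them. The expression row of Timd2 (ENSMUSG00000040413, chr11:46668635-46707297) keeps close to that gene. The row of Havcr1 (ENSMUSG00000040405, chr11:46682647-46780361) begins 57175 bases before the RefSeq gene, inside the body of Timd2. The rows therefore share 24651 bases, which is 25.2% of the Havcr1 row and 63.8% of the Timd2 row. No source used here states strand-specific counting, so fragments from the shared stretch could have been counted for either gene. Overlap is common in this table, with 55.2% of the 10757 tested rows overlapping at least 1 other row.

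**Figure D1:**
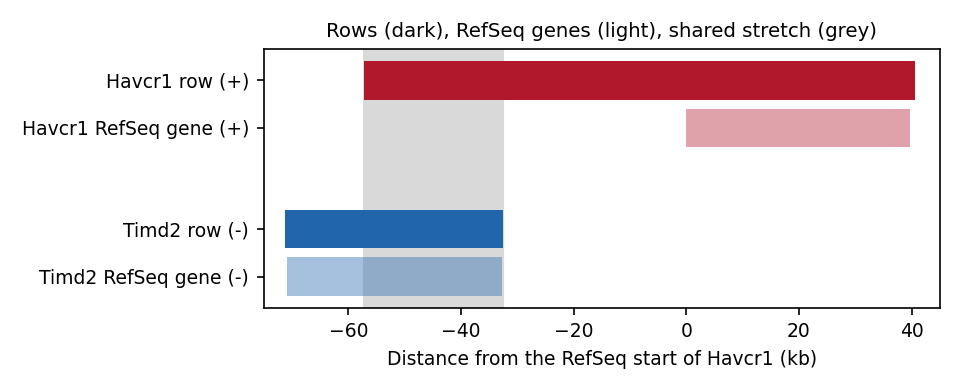
Spans of the Havcr1 and Timd2 rows (dark bars) and of their RefSeq genes (light bars), as distance in kb from the RefSeq start of Havcr1, with the strand beside each name. The Havcr1 row reaches into Timd2, and the grey band marks the 24651 shared bases.

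RefSeq promoter windows of the pair (GRCm38.p6) show the letters at the annotated starts of 2 neighbours with different courses. The 30 bases just before 3 annotated starts of Havcr1 and 2 of Timd2 are given 5′ to 3′ on the gene's own strand, and capitals mark a motif match.
Havcr1, chr11:46740193-46740222, plus strand: agctctggaagagtccatgagcagcagagg
Havcr1, chr11:46750481-46750510, plus strand: cagaagttgaaatctagaacttggaatctg
Havcr1, chr11:46751138-46751167, plus strand: taaccagagtgtcttgtcactgtccttcag
Timd2, chr11:46707105-46707134, minus strand: caaaaggaggaaactaaagtccatgttgcc
Timd2, chr11:46698831-46698860, minus strand: ttagCTTTGTTgttgtggggacaaagtttc
Havcr1, HNF1 half-site match, chr11:46750413-46750442, plus strand: accagaaatggaGTTAATgaagtactaggc

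The 250 bases before each of the 5 starts were searched on both strands for letters bound by factors of the injury response and of tubule identity. The STAT motif TTCNNNGAA, the AP-1 motif TGANTCA, the cyclic AMP response element TGACGTCA, the HNF4 motif CAAAGTCCA and the TATA box TATAAA matched in 0 of the 5 windows. Among all 32851 RefSeq promoter windows of that length they matched in 7.02%, 6.75%, 1.55%, 0.384% and 12.4%. The HNF1 half-site GTTAAT matched 1 Havcr1 window, 86 to 81 bases before its start, and 6.43% of all windows. The SOX motif AACAAAG matched 1 Timd2 window on the reverse strand, 26 to 20 bases before its start, and 5.03% of all windows. These matches describe letters only, and the motifs were chosen with the sequences in view.

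Havcr1 was low at 0 h and higher at each later time. Its level, in FPKM (fragments per length of gene model and mapped depth, which allows comparison between genes), was 0.328 in 0 h library a and 0.266 in b. The 24 h libraries held 2.46 and 2.53, the 48 h libraries 32.9 and 47.2, and the 72 h libraries 259.55 and 262. No library of 1 time overlapped a library of another time, and the order 0, 24, 48, 72 h held in every pairing of libraries. How many other rows lack such overlap was not counted, so this describes Havcr1 and does not set it apart. The means were 0.297 ± 0.0437, 2.50 ± 0.0533, 40.0 ± 10.1 and 261 ± 2.01 FPKM (SD, n = 2 at each time).

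The steps between these means were large and of unequal size. Mean Havcr1 FPKM was 8.41 times the 0 h mean at 24 h, 16.0 times the 24 h mean at 48 h, and 6.52 times the 48 h mean at 72 h. From 0 to 72 h the ratio of means was 879. On the log2(FPKM + 1) scale, which understates change at low FPKM, Havcr1 differed from 0 h by 1.43 at 24 h, 4.96 at 48 h and 7.66 at 72 h. With a pseudocount of 0.1 in place of 1 the 24 h difference was 2.71, because the 0 h values lie below 1 FPKM. Libraries a and b were furthest apart at 48 h, where the SD was 25.1% of the mean, against 14.7% at 0 h, 2.13% at 24 h and 0.769% at 72 h.

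Placed among all rows, those at 0 included, Havcr1 moved from the middle of the table to its top. In the 0 h libraries it stood at the 48.3 and 46.8 percentile of the 21874 rows by FPKM. There 15629 and 15781 rows were above 0, and Havcr1 ranked 11312 and 11632 from the top. It stood at 63.0 and 64.2 at 24 h, at 94.0 and 95.9 at 48 h, and at 99.2 in both 72 h libraries, where it ranked 168 and 167 from the top. Its difference from 0 h ranked 248 from the most raised of 10757 tested rows at 24 h, 6 at 48 h and 1 at 72 h. Between 24 and 48 h it had the largest log2 increase of all tested rows, and between 48 and 72 h the seventh largest.

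Timd2 followed another course. At 0 h it was abundant, at 60.6 FPKM in 0 h library a and 68.9 in b. The 24 h libraries held 7.80 and 7.17, the 48 h libraries 3.06 and 3.35, and the 72 h libraries 46.2 and 42.2. The libraries of the 4 times did not overlap, a trait not counted over all rows, and their order from the lowest was 48, 24, 72 and 0 h. Group means were 64.8 ± 5.88, 7.48 ± 0.445, 3.20 ± 0.204 and 44.2 ± 2.83 FPKM (SD, n = 2) in time order.

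The 0 h mean of Timd2 was 8.66 times the 24 h mean and 20.2 times the 48 h mean. At 72 h the mean was 13.8 times that at 48 h and stood at 0.682 of the 0 h mean. On the log2(FPKM + 1) scale Timd2 differed from 0 h by -2.95 at 24 h, -3.97 at 48 h and -0.54 at 72 h. The 72 h shortfall depended on scaling, being -0.24 after quantile normalisation. Timd2 ranked 2 from the most lowered of 10757 tested rows at 24 h and 3 at 48 h, and its increase from 48 to 72 h ranked 4 from the most raised.

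**Figure D2:**
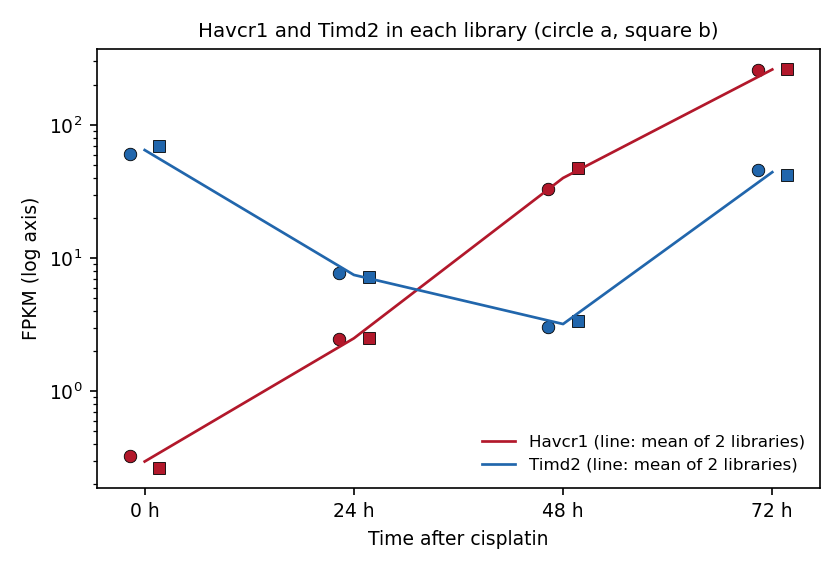
FPKM (log axis) of Havcr1 (red) and Timd2 (blue) against time after cisplatin, with circles for library a, squares for library b and lines through the means of 2 libraries. Havcr1 climbs from 0.297 to 261 FPKM, while Timd2 drops from 64.8 to 3.20 at 48 h and stands at 44.2 at 72 h.

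The balance between the receptors inverted between 24 and 48 h. Timd2 FPKM was 185 and 259 times that of Havcr1 in the 0 h libraries, and 3.17 and 2.83 times at 24 h. Havcr1 FPKM was then 10.8 and 14.1 times that of Timd2 at 48 h, and 5.62 and 6.22 times at 72 h. In time order, their summed FPKM was 61.0 and 69.2, then 10.3 and 9.70, then 36.0 and 50.5, and last 306 and 305.

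The rows share a stretch, so their levels are set side by side for 48 and 72 h, when Havcr1 was the more abundant. Timd2 stood at 0.0930 and 0.0710 of Havcr1 in the 48 h libraries and at 0.178 and 0.161 in the 72 h libraries. At 0 h Timd2 was the more abundant, with 60.6 and 68.9 FPKM against 0.328 and 0.266 for Havcr1. Whether fragments of either gene entered the value of the other was not tested at any time.

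Rows with the shape of either course were counted by thresholds set after these values were seen. Among tested rows only Havcr1 and Crct1, a gene of the epidermal differentiation complex, had a mean at least 4 times that of the time before at all 3 steps. In time order, Crct1 held 0 and 0.0313 FPKM, 0.209 and 0.123, 2.74 and 2.51, and 13.5 and 13.6. For Timd2, 126 tested rows (1.17%) had means at least 4 times lower than 0 h at both 24 and 48 h. Of these, 25 (19.8%), Timd2 included, were back within 2 times of 0 h or above it at 72 h.

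The 25 rows with this course included genes with no known link to TIM receptors. The mitochondrial cytochrome oxidase gene mt-Co1 was listed at 0 in all 24 and 48 h libraries, against 19100 and 18100 FPKM at 0 h and 16700 and 17100 at 72 h. In time order, the G protein subunit gene Gnaq held 9.40 and 9.42 FPKM, 0.774 and 0.908, 0.90 and 0.708, and 8.74 and 9.14. These 2 genes were chosen from the 25 after their values were seen. Of the 25 rows 11 overlapped another row, as Timd2 does, and 14 (56.0%) overlapped none. Whether a difference in handling between the 24 and 48 h libraries and the others took part in the Timd2 course was not tested.

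The rows most like each gene were found by Pearson's r of log2(FPKM + 1) over the 8 libraries, which weighs shape and not size. The 8 points fall into 4 time groups and share one FPKM scale, so r is a description only. For Havcr1 the highest were Raph1 (0.999), the integrin subunit gene Itgb3 (0.998), B4galt6 (0.996), Spred1 (0.995), Dpysl3 (0.995) and Cox6b2 (0.994). Of 10550 candidate rows 372 had r above 0.95. None of these 6 matched Havcr1 in size. From 0 to 72 h the mean of Cox6b2 went from 4.11 to 33.6 FPKM and that of Itgb3 from 0.298 to 4.47, against 0.297 to 261 for Havcr1. With r taken on FPKM itself 0 of the 6 remained, since that measure follows the 72 h values, and Uhrf1 and Lgals1 came first.

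For Timd2 the highest were the ubiquitin ligase gene Cop1 (0.996), Uvrag (0.995), Snrpb (0.994), Dguok (0.994), Irf2bp2 (0.994) and the adenylyl cyclase gene Adcy6 (0.993), with 238 rows above 0.95. Cop1 came closest in level, with means of 53.3, 12.9, 6.94 and 46.9 FPKM in time order. Adcy6 went from 15.8 to 1.70, 1.01 and 10.6 FPKM. On FPKM itself 1 of the 6 remained, Adcy6. Cop1 and Dguok overlap no other row, unlike Timd2.

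**Figure D3:**
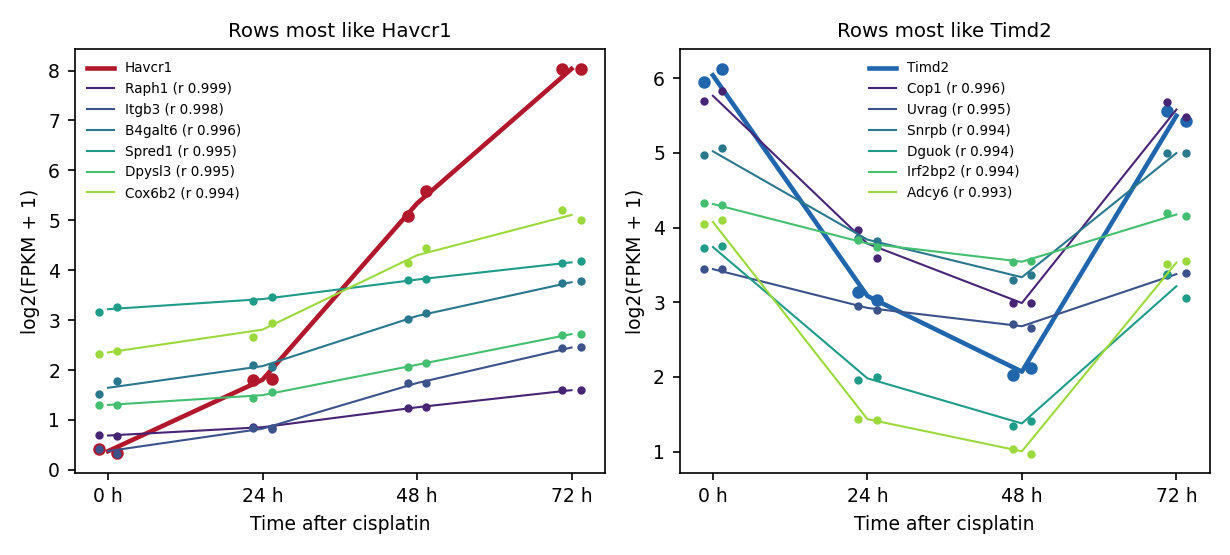
log2(FPKM + 1) by time after cisplatin for Havcr1 (left, red), Timd2 (right, blue) and the 6 rows most like each, with dots for libraries and lines through the means of 2 libraries. The Havcr1-like rows share its rising shape over a smaller range, and the Timd2-like rows share the trough at 24 and 48 h.

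The other TIM genes were scarce. Havcr2, which encodes the immune checkpoint receptor TIM-3, held 0.240 and 0.163 FPKM at the start, then 0.816 and 0.576, 0.838 and 0.777, and 1.23 and 1.11 in time order. Each later time lay above both 0 h libraries. Its row passed the filter on low values only through the 72 h libraries, so the filter favoured a difference and no test is given for it. Timd4, which encodes the phosphatidylserine receptor TIM-4 of resident macrophages, did not exceed 0.0262 FPKM in any library. Timd5, Timd6 and Timd7 had no row of their own.

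Neighbouring rows were few and mostly silent. Within 500 kb of the pair's rows lay 11 other rows, of which 8 stayed at or below 0.418 FPKM and were not tested. Besides Havcr2, the tested rows were Cyfip2, an actin regulator of the WAVE complex, and Med7, a Mediator subunit. In time order, Cyfip2 held 38.0 and 37.7 FPKM, 14.9 and 13.0, 13.2 and 13.0, and 17.3 and 19.9. In limma with Benjamini-Hochberg adjustment over all 10757 tested rows, it fell by 1.38, 1.46 and 0.99 on the log2 scale at 24, 48 and 72 h (adjusted p = 2.9e-06, 1.1e-06 and 1.2e-05). Med7 rose by 0.86 and 1.01 at 24 and 48 h (limma adjusted p = 6.3e-05 and 1.8e-05). At 72 h Med7 was higher by 0.36 (adjusted p = 0.0092), a call lost without 0 h library b (0.27, adjusted p = 0.069) or 72 h library b (0.32, adjusted p = 0.059) and after quantile normalisation (0.21, adjusted p = 0.12). Of 2163 circular RNAs listed for these libraries, 0 had an end in either row or in the 500 kb on each side.

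Genes known to work with TIM receptors were followed through 7 lists of 94 genes besides the pair, of which 84 had a row and 75 were tested. Against 0 h, limma called 20 higher and 33 lower at 24 h, beside 25.8% and 40.0% of all tested rows. At 48 h it called 29 higher and 27 lower, beside 28.5% and 42.1%, and at 72 h 43 higher and 18 lower, beside 37.6% and 32.4%. The tested genes include Havcr2, Plxnb1, Stab2, Cd300lf and Mmp3, which reached 1 FPKM at 1 time only. The filter favoured a difference for them, and they were not taken out of these counts. After quantile normalisation the 48 h count was 38 higher and 20 lower, beside 3678 higher and 3769 lower of all tested rows. Between 24 and 48 h 25 were higher and 11 lower, beside 11.2% and 17.2%, and 26 and 4 after quantile normalisation. Without 48 h library a these were 13 and 6, and without 48 h library b 14 and 2. Between 48 and 72 h 45 were higher and 5 lower, beside 37.2% and 11.3%, with 35 and 12 when every library was given the same median. The 5 lower became 3 without 48 h library a, 48 h library b or 72 h library a, and 2 without 72 h library b. That last contrast shifts as a whole, since the median of all tested rows was 0.18 on the log2 scale. Against 0 h that median was -0.12 at 24 h, -0.13 at 48 h and 0.07 at 72 h, and equal medians brought it to -0.01, 0.0 and 0.01. Over all tested rows the contrast of 72 against 48 h gave 3999 higher and 1212 lower, but 2307 and 2483 with equal medians and 2426 and 2465 after quantile normalisation. For 48 against 24 h the same counts were 1200 and 1846, and 1576 and 1562 after quantile normalisation. The contrasts with 0 h share the same 2 libraries, so their counts are not independent of each other.

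Ligands of TIM-2 went different ways. Sema4a, which encodes semaphorin 4A, held 15.4 and 17.9 FPKM, 4.31 and 3.73, 3.49 and 2.96, and 6.5 and 6.56 in time order, in a row that overlaps that of Naxe. Its 48 h mean was its lowest, like that of Timd2, although its 24 and 48 h values did not pass the test for a difference (-0.25, limma adjusted p = 0.12). It fell by 1.81, 2.06 and 1.23 on the log2 scale at 24, 48 and 72 h (limma adjusted p from 4.1e-07 to 8.9e-06). For Timd2 the 72 h difference was -0.54. Fth1, which encodes H-ferritin, stood at 1630 and 1670 FPKM at 0 h and 2640 and 2850 at 72 h, a rise of 0.73 (limma adjusted p = 9.5e-06). Fth1 was at -0.06 at 24 h (adjusted p = 0.47), or 0.08 with the same median in every library (adjusted p = 0.24). Of the TIM-3 ligands, the galectin-9 gene Lgals9 rose by 1.75 at 72 h (limma adjusted p = 1.7e-07). Hmgb1 rose by 0.77 at 24 h (limma adjusted p = 8.2e-06) and was higher by 0.20 at 72 h (adjusted p = 0.016), having fallen by 0.33 from 48 h (adjusted p = 0.0024). That 72 h call was lost with equal medians (0.13, adjusted p = 0.13) and without either 0 h or either 72 h library (adjusted p from 0.050 to 0.082). Of 11 genes in the ligand list 6 were tested, and 4 were higher and 1 lower at 72 h, beside 37.6% and 32.4% of all tested rows. Fewer were higher without 0 h library b. The list's median was 0.28 against 0.07 for all tested rows. The 4 include Hmgb1 and Plxnb1, and Plxnb1 passed the filter only through its 72 h libraries.

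Of other phosphatidylserine receptors and the proteins that bridge them to dying cells, 16 of 21 were tested. At 72 h 11 were higher and 4 lower, with a median of 0.96, beside 37.6% higher, 32.4% lower and a median of 0.07 over all tested rows. Cd300lf among the higher and Stab2 among the lower reached 1 FPKM at 1 time only, so the filter favoured their calls. The receptor tyrosine kinase gene Axl stood at 7.80 and 8.18 FPKM at 0 h and 45.8 and 47.0 at 72 h, a rise of 2.40 (limma adjusted p = 8e-08). Itgb3, whose product takes up cells bound by milk fat globule protein, rose by 2.08 (limma adjusted p = 1.1e-07), and Mfge8, the gene of that protein, by 1.40 (limma adjusted p = 2.6e-07). Gas6, the bridging ligand of Axl, went the other way, from 124 and 115 FPKM to 41.5 and 46.1, and fell by 1.43 (limma adjusted p = 3.3e-07). At 72 h Havcr1, at 261 FPKM, stood above each of these 4 genes in level per length.

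Genes of engulfment and LC3-associated uptake, the machinery by which KIM-1 cargo reaches lysosomes, showed no common direction at 72 h against 0 h. Of 22 genes 20 were tested. At 24 h against 0 h 1 was higher and 12 lower (median -0.35), beside 25.8% and 40.0% of all tested rows (median -0.12). At 48 h against 0 h 4 were higher and 9 lower (median -0.37), beside 28.5% and 42.1% (median -0.13). From 48 to 72 h 11 were higher and 0 lower (median 0.44), beside 37.2% and 11.3% (median 0.18). At 72 h against 0 h 8 were higher and 4 lower (median 0.00), beside 37.6% and 32.4% of all tested rows (median 0.07). Without 72 h library b 5 were higher, and after quantile normalisation 7 were lower. Lamp1, a lysosomal membrane protein gene, fell by 0.93 at 72 h (limma adjusted p = 1.5e-06) and Rab7, of late endosomes, by 0.41 (limma adjusted p = 0.00033). Cybb, the phagocyte oxidase gene, rose by 1.54 (limma adjusted p = 1.3e-05), as did Rac1 by 0.64 (limma adjusted p = 1.3e-05) in a row that also spans several other genes.

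Among 9 genes that govern shedding of membrane receptors, all tested, 5 were higher and 2 lower at 72 h (median 0.23), beside 37.6% and 32.4% of all tested rows. The 5 include Mmp3, which passed the filter only through its 72 h libraries, and Adam10. Adam10 and Adam17 encode metalloproteases known to release the KIM-1 ectodomain, and are named for that role. In time order, Adam10 held 22.2 and 24.2 FPKM, 11 and 10.4, 16.4 and 17.6, and 27.0 and 27.9, and it fell by 1.05 at 24 h (limma adjusted p = 5.3e-06). Its 72 h call (0.23, limma adjusted p = 0.024) was lost with equal medians (0.16, adjusted p = 0.068) and without 0 h library a (0.17, adjusted p = 0.15), 72 h library a (0.26, adjusted p = 0.064) or 72 h library b (0.21, adjusted p = 0.11). Adam17 lay between 7.87 and 9.17 FPKM in all 8 libraries and was not called at any time against 0 h, except at 48 h with equal medians (0.24, adjusted p = 0.045) or quantile normalisation (0.25, adjusted p = 0.041). The metalloprotease inhibitor gene Timp1 rose by 5.03 at 72 h (limma adjusted p = 1.2e-09), whereas Timp3, the inhibitor of Adam17, fell by 1.36 (limma adjusted p = 2e-07). Mapk14, the p38 kinase gene, fell by 0.85 (limma adjusted p = 6.1e-06), and Rhbdf2, a cofactor of Adam17, rose by 1.54 (limma adjusted p = 2.1e-06).

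All 11 tested genes of the 15 listed for signalling and transcription around KIM-1 were higher at 72 h (median 1.13). Of all tested rows 37.6% were higher then, with a median of 0.07. At 24 h 5 of the 11 were higher and 2 lower, beside 25.8% and 40.0% of all tested rows. Stat3, whose product is known to bind the KIM-1 promoter, held 13.6 and 14.9 FPKM, 21.3 and 19.8, 19.7 and 25.2, and 34.7 and 38.4 in time order, in a row that overlaps those of Igfbp4 and Stat5a. It rose by 0.50, 0.61 and 1.3 at 24, 48 and 72 h (limma adjusted p = 0.0043, 0.0012 and 9.4e-06). Its feedback inhibitor gene Socs3 rose by 2.70, 3.11 and 3.50, and the oncostatin M receptor gene Osmr by 1.47, 1.85 and 2.62 (limma adjusted p from 4.7e-09 to 5.3e-06). Nr4a1, the gene of a nuclear receptor that binds KIM-1, rose by 2.53 at 72 h (limma adjusted p = 7.2e-08). At 24 h, when Stat3 and Socs3 were higher, as were 25.8% of all tested rows, mean Havcr1 was also 8.41 times its 0 h mean. Whether Stat3 or Socs3 took part in the Havcr1 course was not tested.

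Iron and ferritin genes, listed because TIM-2 takes up H-ferritin, were 4 higher and 7 lower of 13 tested among 14 at 72 h (median -0.31). Over all tested rows the shares were 37.6% and 32.4%, and the median was 0.07. The ceruloplasmin gene Cp rose by 3.02 and the heme oxygenase gene Hmox1 by 1.83, while Aco1, the gene of an iron regulatory protein, fell by 1.75 and the iron importer gene Slc11a2 by 1.39 (limma adjusted p from 1.5e-08 to 2.1e-06). Aco1 stood at 47.2 and 43.9 FPKM at 48 h and 45.6 and 47.0 at 72 h, and Slc11a2 at 13.5 and 12.1 and then 10.6 and 10.0. The iron exporter gene Slc40a1, named after its values were seen, had means of 15.0, 4.86, 7.61 and 11.8 FPKM in time order. Like that of Timd2, its level was higher at 72 h than at 48 h (0.57, limma adjusted p = 0.0057). In that contrast 37.2% of all tested rows were called higher, and of the 13 in this list 4 were higher and 3 lower.

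**Figure D4:**
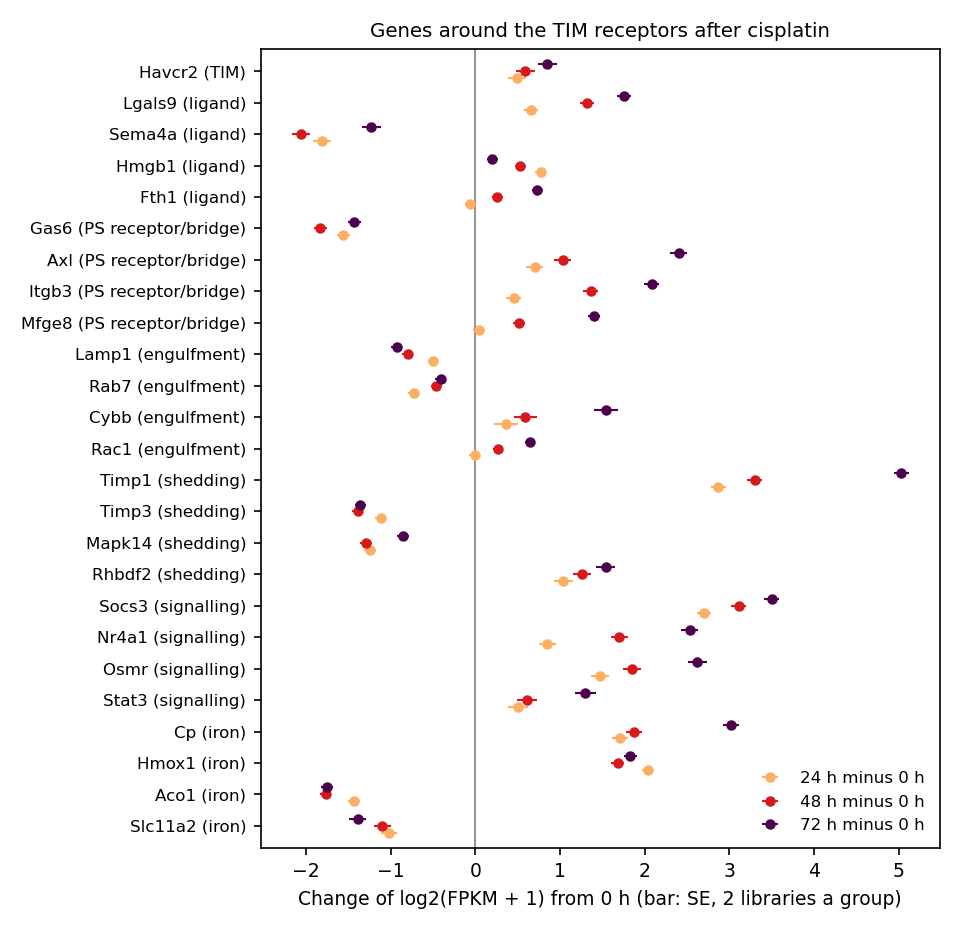
Change of log2(FPKM + 1) from 0 h at 24, 48 and 72 h, with SE bars, for the 25 named genes around the TIM receptors, each with its list in brackets. Timp1 lies furthest to the right at 72 h at 5.03, and Sema4a furthest to the left at 48 h at -2.06.

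Marker levels of cell types were set beside the pair, because in bulk tubules fewer cells of a type and less RNA per cell cannot be told apart. The 12 proximal tubule markers, which define the labelled tissue, were all present, led by Lrp2 and Slc34a1, and their summed FPKM in time order was 4860 and 5240, 2250 and 1950, 1300 and 1340, and 612 and 621. That sum was thus lowest at 72 h, when Timd2 was again at 46.2 and 42.2 FPKM. The 10 injured-tubule markers with a row, led by Spp1 and Clu, summed to 382 and 387 FPKM at 0 h and 3600 and 3490 at 72 h, and were highest at the time Havcr1 was.

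Lymphocytes, which also carry TIM-1 and TIM-2, had little signal. The 7 T cell markers with a row, led by Lck and Cd4, summed to between 0.785 and 2.01 FPKM in all libraries. That sum was highest in a 0 h library. Of the B cell markers, Ms4a1 and Pax5 were at 0 in at least 1 library, and the row of Cd79a also spans other genes. The 7 macrophage markers with a row, led by C1qc and Lyz2, summed to 57.0 and 50.7 FPKM at 0 h and 207 and 215 at 72 h. The 6 neutrophil markers, led by S100a8 and S100a9, summed to 1.02 and 1.12 and then 65.2 and 62.9, and the 6 endothelial markers, led by Egfl7 and Emcn, to 67.3 and 64.5 and then 126 and 132. The 4 thick ascending limb markers with a row, led by Slc12a1 and Cldn10, summed to 476 and 483 FPKM in the 0 h libraries and to 168 and 169 in the 72 h libraries. The part of these cell types in the levels of Havcr1 and Timd2 was not tested.

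FPKM totals ranged from 314000 to 452000 and were highest for 0 h, so levels are relative to libraries of different totals. Depth is not given by FPKM. The smallest steps among low rows put 0 h library b at 1.29 times the depth of a, and gave no clear step for the other libraries.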

How the data were processed

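RNA of proximal tubular cells was depleted of ribosomal RNA, and libraries were made with a kit named for small RNA, per the labels' protocols. The authors deposited 1 FPKM value per gene row and library, per the file headers, and whole-number counts per circular RNA, which the authors deposited beside 8 columns of a second measure not used here. Per the submitters' processing notes, the tools were Bowtie 0.12.2, TopHat2 and Cufflinks and the build mm10; their roles are not stated. Column letters (a, b) do not match the numbered labels, which leaves each column tied to a time group only.

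Of 21874 rows, 19742 matched a symbol by Ensembl identifier. Rows reaching 1 FPKM in 2 or more of 8 libraries, 10757 in all, were tested with limma 3.58.1 in R 4.3.3 on log2(FPKM + 1), with trend and robust empirical Bayes, in 1 fit of 4 groups and 5 contrasts. The tests were 2-sided with Benjamini-Hochberg adjustment over all tested rows and a threshold of 0.05. The procedure was run on simulated data in which few rows changed and no library shifted as a whole. That run does not cover data changed as widely as these. For rows that reach 1 FPKM at 1 time only (Havcr2, Plxnb1, Stab2, Cd300lf and Mmp3 among the lists), the filter itself favoured a difference. Circular RNA counts were only searched by position.

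Members and lists were chosen with earlier results of these data known. Named genes are the pair, TIM genes, rows within 500 kb, up to 4 per list by smallest p against 0 h, the 2 most abundant markers per cell type list, and the 6 rows most like each member; Adam10, Adam17, Crct1, Gnaq, mt-Co1 and Slc40a1 were added. Alternatives were a pseudocount of 0.1, equal medians, quantile normalisation, no filter, r on FPKM, and leaving out each library. A summed level of B cell markers is not reported here.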

Additional observations from a re-analysis of the deposited data

How the results depend on the processing

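The log2 differences of Havcr1 and Timd2 at 24, 48 and 72 h against 0 h and at 72 against 48 h kept their sign under every alternative tried; 48 against 24 h was not recomputed. For Havcr1 at 24, 48 and 72 h against 0 h, a pseudocount of 0.1 gave 2.71, 6.64 and 9.37. Equal medians gave 1.5 at 24 h and 7.54 at 72 h, and quantile normalisation 1.29 and 7.57. For Timd2, quantile normalisation gave -2.62, -3.61 and -0.24 at 24, 48 and 72 h against 0 h, and a pseudocount of 0.1 gave -4.29 at 48 h. From 48 to 72 h Timd2 differed by 3.74 with that pseudocount and by 3.22 with equal medians. The smaller pseudocount by its construction enlarges differences of low values; the cause of the other shifts was not tested. Leaving out single libraries gave 1.40 to 1.47, 4.71 to 5.22 and 7.62 to 7.69 for Havcr1 against 0 h and 2.44 to 2.95 from 48 to 72 h. The same gave -3.04 to -2.86, -4.06 to -3.87, -0.63 to -0.45 and 3.36 to 3.49 for Timd2.

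Of the pathway genes, those called lower at 48 h against 24 h numbered 4 after quantile normalisation, and those lower at 72 h against 48 h numbered 12 with equal medians. Leaving out single libraries gave 13 to 22 higher and 2 to 12 lower for 48 against 24 h, and 38 to 46 and 2 to 5 for 72 against 48 h. Against 0 h it gave 19 to 22 higher and 30 to 35 lower at 24 h, 26 to 31 and 26 to 29 at 48 h, and 37 to 43 and 17 to 18 at 72 h. A lone library left in a group is assumed to vary like the others. No paired analysis was possible because the columns carry letters and not the replicate numbers of the labels. FPKM gives no depth, so counting error is unknown, above all for Havcr1 at 0 h.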
